A study of Mus musculus with 8 samples.

Results

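The CDK inhibitors Cdkn1a, Cdkn1b, Cdkn1c, Cdkn2c and Cdkn2d, the growth arrest genes Gadd45a and Gadd45b, and the D cyclins Ccnd1, Ccnd2 and Ccnd3 were followed in mouse bone marrow derived macrophages. They were chosen as all probe sets whose platform annotation names 1 of these 10 genes, out of 12393 genes that have a probe set of their own. The 10 genes have 22 probe sets of 22690 on the array (7 for Ccnd2, 3 each for Ccnd1 and Gadd45b, 2 each for Cdkn1a and Cdkn1b and 1 for each of the others). All 22 passed the filter on low signal (at least 1 array at or above 59.1), and none names a second gene.

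Total RNA was measured on 8 arrays, 1 for each group: Vdr-/- cells (allele Vdr tm1 Rge, a knockout of the vitamin D receptor) given IFN-gamma and calcitriol, IFN-gamma, calcitriol, or nothing, and wild-type cells given the same. Calcitriol is 1alpha,25(OH)2D3, the hormonally active form of vitamin D, and IFN-gamma is the cytokine that activates macrophages. All cells were grown for 7 days in M-CSF at 50 ng/ml, a growth factor for the macrophage lineage, and treated cells were then cultured for 24 to 48 hours, with no single time and no dose given in the sources used here. Strain, age and the number of mice are likewise not given, and with 1 array per group, genotype and the source mice or cultures cannot be told apart. Each signal is a deposited linear intensity. Differences are log2 values, taken after signals under a floor of 15.5 were raised to it. A probe set was called at a limma adjusted p under 0.05 over 18058 tested probe sets.

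A D cyclin bound to its kinase drives a cell out of G1, the growth phase before DNA replication. The Cdkn1 proteins bind and inhibit cyclin and kinase complexes of several kinds, while the Cdkn2 (INK4) proteins block the kinase partners of the D cyclins. Gadd45 proteins are stress-induced regulators that act on cell cycle proteins and on stress kinase signalling. Macrophages in culture divide in response to M-CSF, and IFN-gamma is known to arrest their growth. Cdkn1a and Gadd45a are both textbook targets of the transcription factor p53.

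Macrophage markers were high in sum on every array, at 40791 to 60821 on the 4 IFN-gamma arrays and 56882 to 60325 on the 4 others (9 of 10 listed genes measured). Single markers were not all high. On the wild-type calcitriol array Lyz2 and Csf1r gave 26326.7 and 23146.4, but Itgam 80 and Fcgr1 145.2. On the Vdr-/- calcitriol array Itgam gave 977.6 and Fcgr1 1446.7. With calcitriol 2 of the 9 were called lower in wild-type cells and 1 higher in Vdr-/- cells. For the difference of these effects 5 were called lower. The 2 Vdr probe sets went against the labels of the untreated arrays. They gave 90.3 and 63.2 on the array labelled Vdr-/- untreated, against 6.7 and 5.3 on the array labelled wild type untreated, while in the other 3 conditions wild type was higher on both probe sets. Whether these probe sets lie within the deletion is unknown here, so the check of the labels is limited. Ratios of 3' to 5' control signal also differed. The Gapdh ratio was 3.06 in Vdr-/- cells given IFN-gamma, 4.82 for the array labelled Vdr-/- untreated and 7.67 in wild-type cells given calcitriol. It was between 0.853 and 1.65 for the remaining 5. The actin ratio was 3.27 for the array labelled Vdr-/- untreated, 4.08 in wild-type cells given calcitriol and at most 1.81 elsewhere. The ratio of the ThrX control probe sets was 18.4 and 72.8 on those 2 arrays and at most 4.14 elsewhere. The source of these differences was not tested. Because whole cultures were measured, fewer cells of a type and less RNA per cell cannot be told apart.

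Promoter windows of Cdkn1a and Gadd45a are shown because both genes were called below, in opposite directions. Sequences are from RefSeq on GRCm38.p6, 250 bases before to 50 after a transcript start, and 7 of the 10 genes had such windows, 10 in all; Cdkn1c, Ccnd1 and Ccnd2 had no entry. Cdkn1a spans chr17:29090979-29100722. The first Cdkn1a window is chr17:29090729-29091028 on the plus strand, and capitals mark 2 matches to the p53 decamer, the repeat unit of p53 binding sites, 73 and 51 bases before the start.
Cdkn1a, upstream start: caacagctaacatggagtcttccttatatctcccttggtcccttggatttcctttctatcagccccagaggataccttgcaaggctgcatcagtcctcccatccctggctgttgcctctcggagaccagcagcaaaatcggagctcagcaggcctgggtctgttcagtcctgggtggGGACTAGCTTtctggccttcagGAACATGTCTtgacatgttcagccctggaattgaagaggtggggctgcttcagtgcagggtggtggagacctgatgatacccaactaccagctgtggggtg
The second Cdkn1a window is chr17:29093519-29093818 on the plus strand, where capitals mark 2 GGGCGG boxes.
Cdkn1a, downstream start: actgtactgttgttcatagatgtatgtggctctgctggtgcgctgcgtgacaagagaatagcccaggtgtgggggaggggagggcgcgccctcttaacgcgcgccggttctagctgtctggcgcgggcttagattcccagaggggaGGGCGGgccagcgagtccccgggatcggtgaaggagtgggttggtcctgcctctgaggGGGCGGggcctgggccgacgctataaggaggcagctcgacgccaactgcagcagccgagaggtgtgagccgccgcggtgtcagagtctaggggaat
Gadd45a spans chr6:67035096-67037407. Its window is chr6:67037358-67037657 on the minus strand, where capitals mark a GGGCGG box read on the opposite strand, a CCAAT box and 1 match to the p53 decamer, 40 bases before the start.
Gadd45a: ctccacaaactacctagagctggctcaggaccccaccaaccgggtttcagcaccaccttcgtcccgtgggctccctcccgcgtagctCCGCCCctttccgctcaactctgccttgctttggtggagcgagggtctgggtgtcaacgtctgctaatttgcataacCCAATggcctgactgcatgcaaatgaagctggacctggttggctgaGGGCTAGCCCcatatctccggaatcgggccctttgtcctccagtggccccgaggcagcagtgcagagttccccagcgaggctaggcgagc

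Matches were sought on both strands. GGGCGG was in 8 of the 10 member windows and in 35.7% of all 32851 windows, and CCAAT was in 6 of 10 and in 37.4%. TATAAA was in 1 of 10, that of Gadd45b, and in 13.6%. The p53 decamer was in 3 windows, those of Cdkn1a, Gadd45a and Cdkn2d, and in 8.36% of all; in Cdkn2d it overlaps a GGGCGG box. AGTTCA, a hexamer bound by the vitamin D receptor, was in 0 and in 14% of all.

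IFN-gamma was the factor with calls among these genes: Cdkn1c fell, Cdkn1a rose and Gadd45a fell. These were 3 of 22 probe sets and 3 of 10 genes. Over all tested probe sets 3.43% were called, 2.15% higher and 1.27% lower. The median difference of the 10 genes, each by its brightest probe set, was 0.05, against -0.08 for all tested probe sets. Each effect was taken over 4 pairs of arrays that share genotype and calcitriol by label and differ in IFN-gamma. Culture time after the 7 days may also differ within a pair, since no single time is given. The Gapdh ratio did differ within pairs, as with 1.65 and 7.67 in the wild-type calcitriol pair, with and without IFN-gamma.

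Cdkn1c encodes p57, a CDK inhibitor of the Cdkn1 family from an imprinted locus (chr7:143458339-143461059). Its signal was 23.2 and 23.4 in Vdr-/- cells with IFN-gamma, with and without calcitriol, and 14.3 and 32.2 in wild-type cells with IFN-gamma, with and without calcitriol. Without IFN-gamma it was 173.4 and 269.1 in the Vdr-/- cells and 186.3 and 152.6 in the wild-type cells, in the same order. All 4 IFN-gamma arrays lay below all 4 others, and 1 of them was under the floor. Cdkn1c passed the filter at 59.1 only through the arrays without IFN-gamma, so its call and this gap are not independent of the filter. The log2 difference was -3.06 (SE 0.53, n = 4 pairs, 95% interval -4.17 to -1.96, limma adjusted p 0.00064), an 8.36-fold lower signal, and the pairs ran from -3.59 to -2.24. The IFN-gamma signals were at or near the floor, so the size depends on it: with the floor at the 40th percentile the difference was -2.25 (adjusted p 0.000426). Leaving out a pair gave -3.34 to -2.89, and the adjusted p was then above 0.05 for 3 of the 4 pairs: 0.0538 without the wild-type pair lacking calcitriol, 0.117 without the wild-type pair given calcitriol and 0.165 without the Vdr-/- pair lacking calcitriol.

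Markers of other cells that marrow cultures can hold were read on the same arrays, in 5 lists. The summed signal of the 10 stromal markers was 261 to 454 on the IFN-gamma arrays and 514 to 1338 on the others. Of the 7 tested, 2 fell, Col3a1 at -2.02 and Fn1 at -1.49 (adjusted p 0.0308 and 0.0351). Fn1 gave 656.7 of the sum of 1338, on the wild-type calcitriol array, which has the highest Gapdh ratio. The 9 neutrophil and precursor markers summed to 247 to 300 on the IFN-gamma arrays and 320 to 458 on the others, but 0 of 6 tested were called and their median difference was -0.08, as for all tested probe sets. The 6 erythroid and mast cell list genes summed to 213 to 249 on the IFN-gamma arrays and 375 to 595 on the others. That gap lay in Pf4, a platelet gene, which fell (-1.42, adjusted p 0.0086); the other 5 summed to 87.1 to 138 with IFN-gamma and 120 to 187 without it, which overlap. The 7 dendritic markers summed to 1136 to 2511 on the IFN-gamma arrays and 792 to 1590 on the others, and 1 of 6 tested rose, Cd83 (1.74, adjusted p 0.000407). The 8 lymphocyte and NK markers overlapped, at 158 to 303 on the IFN-gamma arrays and 159 to 399 on the others, with 0 of 5 tested called. No gene of the 5 lists was under the floor on all arrays, but several were at or under it on most. Pdgfrb, Prtn3, Ccr7 and Xcr1 were so on 6 of 8 arrays, and Thy1, Elane, Camp, Cd3e and Mcpt8 on 5. Their share of the sums is therefore uncertain. Which cells of the cultures, macrophages or others, gave these marker signals is not known here. The part of the marker genes in the Cdkn1c result was not tested.

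Cdkn1a encodes p21, the inhibitor through which p53 halts the cycle. Its brighter probe set gave 764.3 and 929.0 in Vdr-/- cells with IFN-gamma, with and without calcitriol, and 909.1 and 746.0 in wild-type cells with IFN-gamma. Without IFN-gamma it gave 427.7 and 424.4 in Vdr-/- cells, with and without calcitriol, and 596.4 and 300.7 in wild-type cells. The IFN-gamma arrays were all above the others, with a log2 difference of 0.97 (SE 0.23, adjusted p 0.0136), a 1.96-fold higher signal. The pairs ran from 0.61 to 1.31. Of the 22 probe sets, 2 had groups that did not overlap (this one and Cdkn1c), and 6.8% of all tested probe sets had such groups. Leaving out a pair kept the value at 0.86 to 1.09, but the adjusted p was above 0.05 in each of the 4 cases, 0.0566 to 0.294.

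The second Cdkn1a probe set was dimmer and less even. It read 242.4 and 187.4 in Vdr-/- cells with IFN-gamma, with and without calcitriol, and 122.8 and 260.0 in wild-type cells with IFN-gamma. It read 150.1 and 81.4 in Vdr-/- cells without IFN-gamma and 15.0 and 143.5 in wild-type cells without IFN-gamma. It was higher with IFN-gamma in 4 of 4 pairs, at 1.43 (SE 0.43), but was not called (adjusted p 0.075). The 2 Cdkn1a probe sets correlated at r = 0.19 over the 8 arrays, which share their scaling. The wild-type calcitriol array, where the second was under the floor, is the one with the highest Gapdh ratio.

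**Figure D1:**
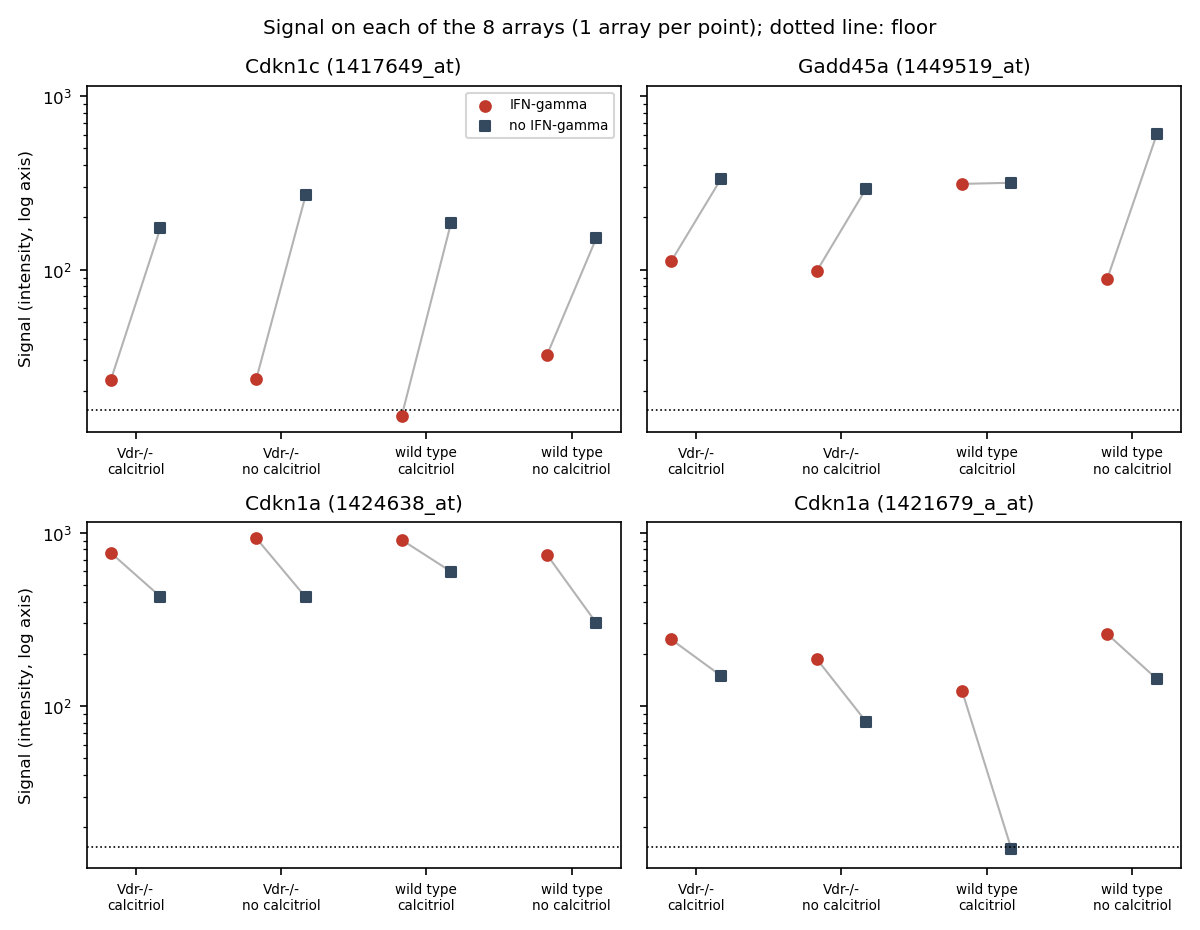
Signal (linear intensity on a log axis) of the called genes on each of the 8 arrays. Red circles are IFN-gamma arrays and blue squares arrays without it, joined where they form a pair. Cdkn1c lies lower with IFN-gamma in all 4 pairs and Cdkn1a higher, while the wild-type calcitriol pair of Gadd45a is level at 312.1 and 316.7.

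Gadd45a fell with IFN-gamma, but 1 of its 4 pairs was level. Its signal was 111.9 and 97.7 in Vdr-/- cells with IFN-gamma, with and without calcitriol, and 312.1 and 88.7 in wild-type cells with IFN-gamma. Without IFN-gamma it was 331.1 and 292.5 in Vdr-/- cells and 316.7 and 602.1 in wild-type cells. The groups overlapped through the wild-type array given both agents. The log2 difference was -1.48 (SE 0.35, adjusted p 0.0151), a 2.79-fold lower signal. This SE, drawn partly from other probe sets, is below what the 4 pairs alone would give. Pair by pair the difference was -1.57 and -1.58 in Vdr-/- cells, with and without calcitriol, and -0.02 and -2.76 in wild-type cells. Leaving out a pair ended the call in each of the 4 cases (adjusted p 0.092 to 0.531). The value was then -1.06 without the wild-type pair lacking calcitriol, which holds an array whose Vdr signal goes against its label, and -1.97 without the wild-type pair given calcitriol.

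Some settings other than leaving out a pair also ended these calls. A fit without the 2 arrays of highest Gapdh ratio, which also replaced the pairs with additive covariates, gave an adjusted p of 0.28 for Cdkn1c (-2.83), 0.224 for Cdkn1a (1.22) and 0.383 for Gadd45a (-1.76). Additive covariates on all 8 arrays gave 0.00128 for Cdkn1c, 0.0766 for Cdkn1a and 0.036 for Gadd45a. With no filter on low signal it was 0.0967 for Cdkn1c, 0.138 for Cdkn1a and 0.432 for Gadd45a. Exchanging the labels of the 2 untreated arrays gave 0.00106 for Cdkn1c, 0.0537 for Cdkn1a and 0.0338 for Gadd45a. With the Gapdh ratio as a covariate all 3 were called.

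Gadd45b, the other growth arrest gene, was not called. Its brightest probe set gave 244.9 and 371.1 in Vdr-/- cells with IFN-gamma, with and without calcitriol, and 532.1 and 166.3 in wild-type cells with IFN-gamma. It gave 230.4 and 223.9 in Vdr-/- cells without IFN-gamma and 153.4 and 297.3 in wild-type cells without IFN-gamma. The 4 pairs did not share a direction, and the 3 probe sets had differences of 0.25 to 0.48 (adjusted p 0.676 to 0.826). The brightest correlated with the other 2 at r = 0.05 and -0.19 over the 8 arrays, while those 2 correlated with each other at 0.82.

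The remaining inhibitors gave no call with IFN-gamma. Cdkn2c (p18), an INK4 inhibitor, had signals of 94 to 179.3 on the IFN-gamma arrays and 91.5 to 192.1 on the others, a difference of 0.07 (95% interval -0.73 to 0.87). Cdkn2d (p19) is the other INK4 inhibitor among the members. It had 53.2 to 147 on the IFN-gamma arrays and 48.8 to 167.3 on the others, a difference of -0.04 (95% interval -1.01 to 0.93). It was lower with IFN-gamma in both Vdr-/- pairs (-0.85 and -0.94) and higher in both wild-type pairs (1.42 and 0.20). Cdkn1b (p27) had a difference of 0.02 (95% interval -1.12 to 1.16), and its 2 probe sets correlated at r = -0.48. Each interval holds changes of either direction, so these data do not show that the 3 genes were steady.

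**Figure D2:**
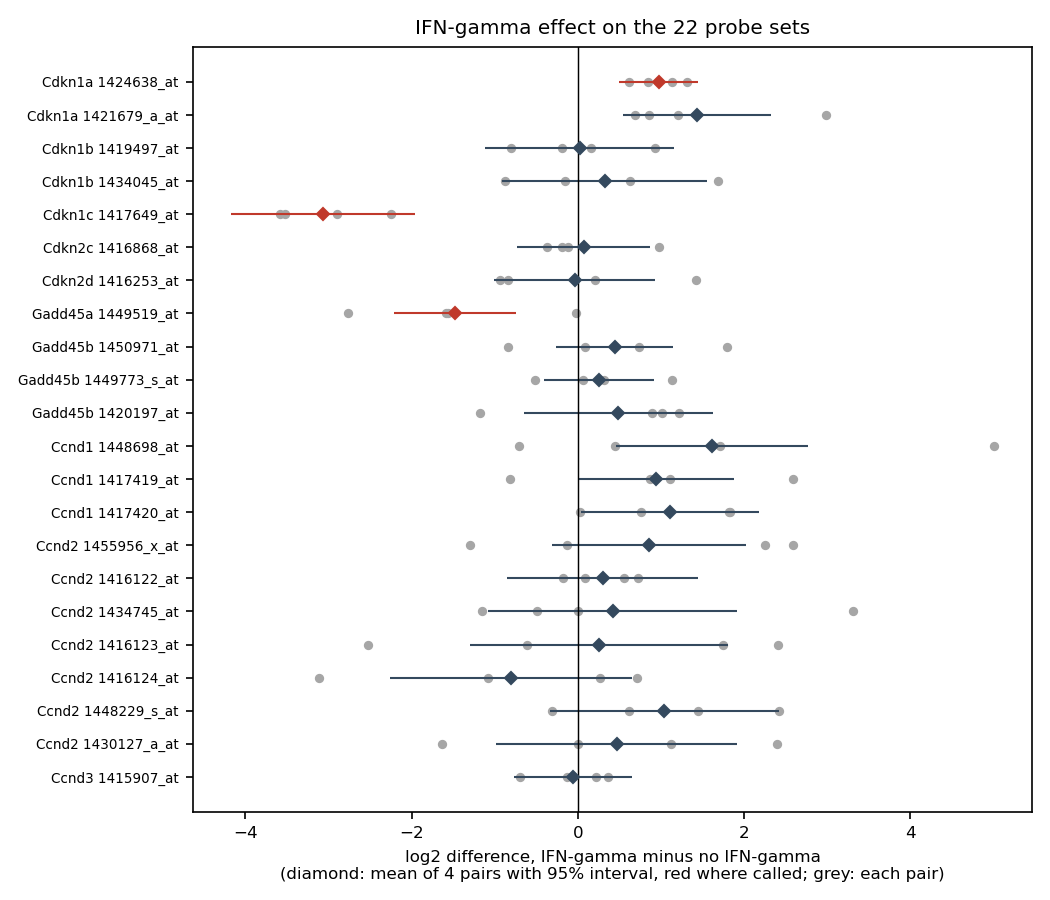
IFN-gamma effect on each of the 22 probe sets, as the log2 difference of IFN-gamma minus no IFN-gamma. Diamonds are means of 4 pairs with 95% intervals, and grey points are the single pairs. The called probe sets sit at -3.06 (Cdkn1c), -1.48 (Gadd45a) and 0.97 (Cdkn1a).

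Among the D cyclins, Ccnd1, which growth factor signalling induces, had the largest difference with IFN-gamma without being called. Its brightest probe set gave 250.7 and 183.1 in Vdr-/- cells with IFN-gamma, with and without calcitriol, and 497.1 and 224.1 in wild-type cells with IFN-gamma. It gave 410.6 and 134.0 in Vdr-/- cells without IFN-gamma and 8.1 and 68.8 in wild-type cells without IFN-gamma. The mean log2 difference was 1.61 (SE 0.56, adjusted p 0.151). This SE, drawn partly from other probe sets, is below what the 4 pairs alone would give. The difference was 5.00 in the wild-type calcitriol pair, whose array without IFN-gamma was under the floor and has the highest Gapdh ratio. It was -0.71 in the Vdr-/- calcitriol pair. The other Ccnd1 probe sets gave 0.94 and 1.11 (adjusted p 0.402 and 0.376), and the second of these was higher in 4 of 4 pairs.

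The IFN-gamma effects on Ccnd1 in the 2 genotypes were not shown to differ. By the brightest probe set the difference of effects, wild type minus Vdr-/-, was 3.48 (SE 0.87, unadjusted p 0.00057, adjusted p 0.996). The wild-type calcitriol pair with the signal under the floor enters this value with its 5.00. Both the SE of 0.87 and the unadjusted p draw partly on other probe sets, and the pairs alone would give a larger SE. In this comparison 0% of all tested probe sets were called, and 635 had an unadjusted p under 0.05. The comparison rests on pairs that hold the untreated arrays and the arrays with high Gapdh ratios. The other Ccnd1 probe sets gave 1.82 and 1.43 (both adjusted p 0.996; unadjusted p 0.0424 and 0.177), and no other member had an unadjusted p under 0.05.

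Ccnd2 and Ccnd3 showed no shared change. The brightest Ccnd2 probe set read 93.4 and 62.8 in Vdr-/- cells with IFN-gamma, with and without calcitriol, and 326.8 and 98.8 in wild-type cells with IFN-gamma. Without IFN-gamma it read 5.5 and 154.7 in Vdr-/- cells and 68.8 and 108.3 in wild-type cells. Its difference was 0.85 (SE 0.57, adjusted p 0.608), with both calcitriol pairs above 0 (2.59 and 2.25) and both others below (-1.30 and -0.13). The 2.59 is that of the Vdr-/- calcitriol pair, where the signal of 5.5 was under the floor, so its size depends on the floor. The 7 Ccnd2 probe sets had differences of -0.80 to 1.04, none called, and correlated with one another at -0.58 to 0.66. All but the 2 brightest were dim, with mean signals of 28.2 to 37.3 and 2 to 4 arrays at or under the floor. Their differences and correlations are therefore uncertain. Ccnd3, a D cyclin of blood cell lineages among others, had 126.7 to 218 on the IFN-gamma arrays and 128.1 to 205.5 on the others, a difference of -0.06 (95% interval -0.77 to 0.65).

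**Figure D3:**
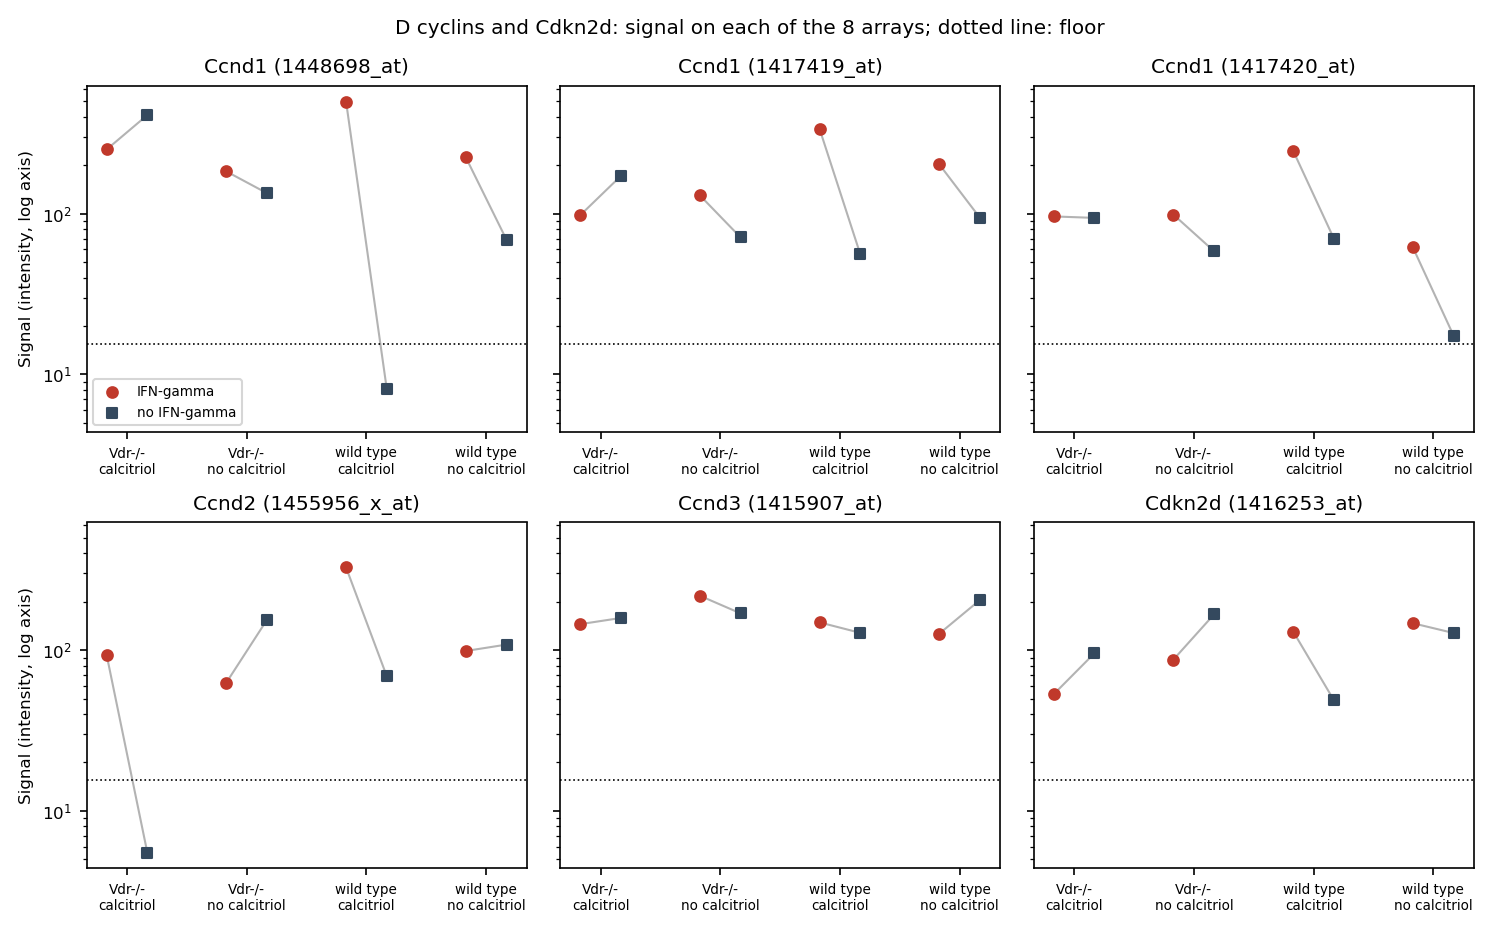
Signal (linear intensity on a log axis, dotted line at the floor of 15.5) of the D cyclins and Cdkn2d on each of the 8 arrays, IFN-gamma in red and no IFN-gamma in blue. Ccnd1 drops to 8.1 on the wild-type calcitriol array, and Ccnd2 to 5.5 on the Vdr-/- calcitriol array.

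Calcitriol changed no member past the threshold in either genotype. In Vdr-/- cells limma called 0 of 22 probe sets (0 at an unadjusted p under 0.05) and 0.194% of all tested, every one of them higher. In wild-type cells it called 0 of 22 (3 unadjusted) and 0.576% of all tested, 0.188% higher and 0.388% lower. For the difference between the genotypes it called 0 of 22 (2 unadjusted) and 1.5% of all, 0.172% higher and 1.33% lower. These comparisons rest on 2 pairs per genotype, so the intervals are wide. Both Vdr-/- pairs and the wild-type pair without IFN-gamma hold an array with a high Gapdh ratio. Calcitriol arrays and the others did not overlap for 5 of 22 probe sets in Vdr-/- cells, where 35.6% of all tested did not, and for 6 of 22 in wild-type cells, where 36.4% of all did not.

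The lowest adjusted p for calcitriol was that of the second Cdkn1a probe set. It gave -2.15 in wild-type cells (SE 0.61, adjusted p 0.126) and 0.63 in Vdr-/- cells (SE 0.61, adjusted p 0.935), a wild type minus Vdr-/- difference of -2.77 (adjusted p 0.125). It was lower in both wild-type pairs. The brighter Cdkn1a probe set went the other way in wild-type cells, higher in both pairs at 0.64 (SE 0.34, adjusted p 0.537), and gave -0.14 in Vdr-/- cells. The direction for Cdkn1a therefore depends on the probe set.

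Gadd45b and Ccnd1 each had 1 probe set with a limma unadjusted p under 0.05 for calcitriol in wild-type cells. The second Gadd45b probe set read 181.5 and 82.9 in Vdr-/- cells given calcitriol, with and without IFN-gamma, and 185.5 and 148.7 in the matching Vdr-/- cells without calcitriol. In wild-type cells it read 422.9 and 604.9 with calcitriol, against 198.3 and 189.4 without. The calcitriol arrays lay above the others in wild type, and the difference was 1.38 (SE 0.45, adjusted p 0.207). The array that read 604.9 has the highest Gapdh ratio. The brightest Gadd45b probe set gave 0.36 in wild-type cells, with pairs of 1.68 and -0.95, with and without IFN-gamma. The third gave 1.05. A Ccnd1 probe set gave 2.00 in wild-type cells (SE 0.72, adjusted p 0.299), while the brightest Ccnd1 probe set gave -0.50. Differences of like size came from a Ccnd2 probe set (1.65, adjusted p 0.608) and a Cdkn1b probe set (-1.57, adjusted p 0.558).

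**Figure D4:**
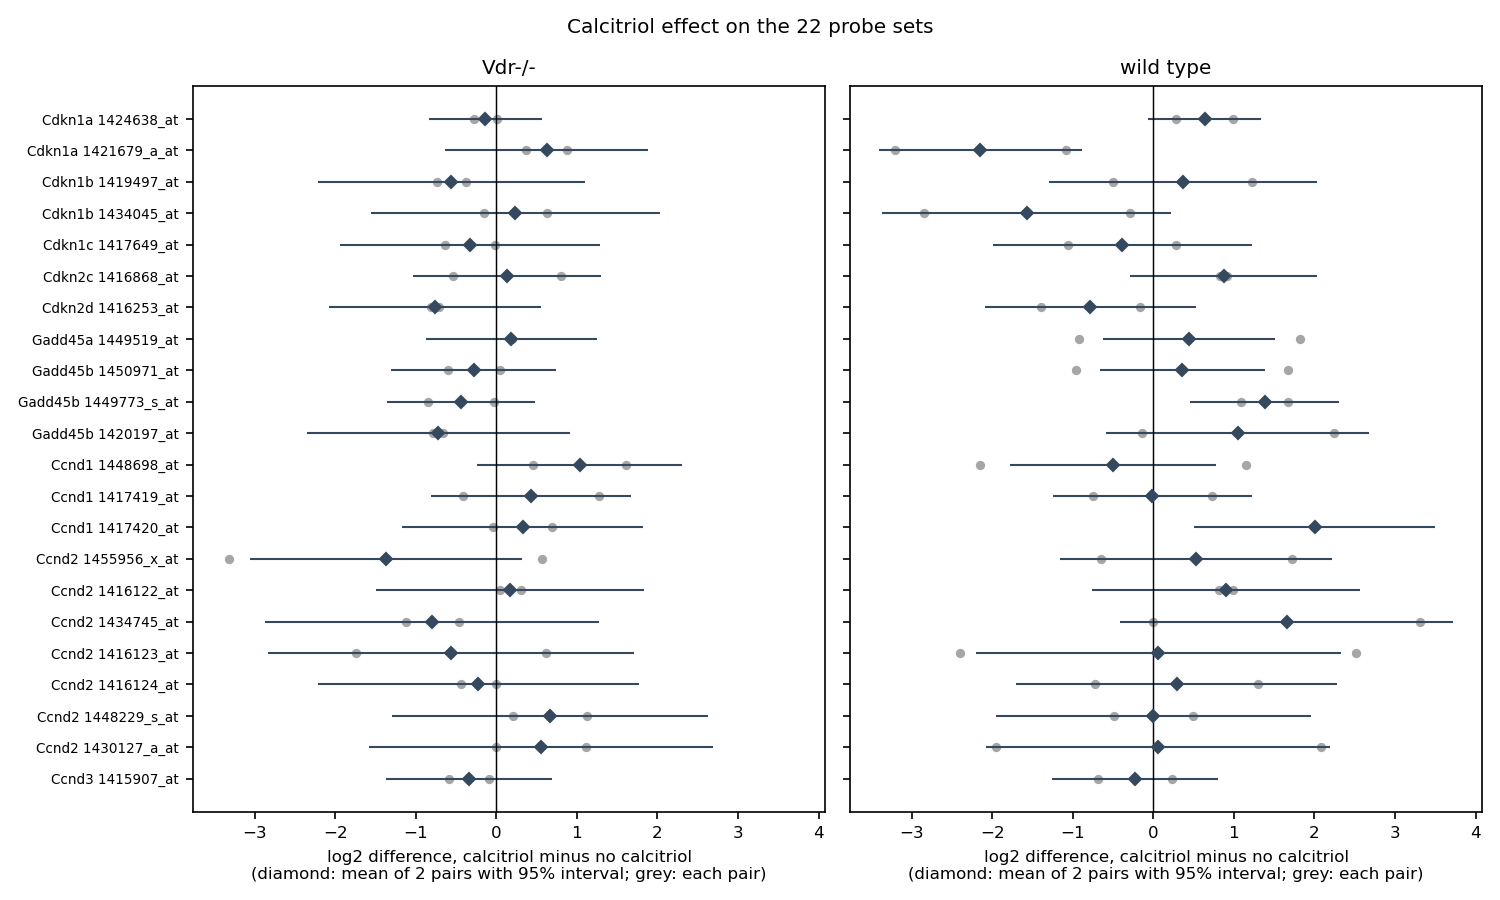
Calcitriol effect on each of the 22 probe sets, as the log2 difference of calcitriol minus no calcitriol, in Vdr-/- cells (left) and wild-type cells (right). Diamonds are means of 2 pairs with 95% intervals and grey points the single pairs. The second Cdkn1a probe set lies at -2.15 in wild-type cells and 0.63 in Vdr-/- cells.

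Genotype alone, as Vdr-/- minus wild type over 4 pairs, gave no call: 0 of 22 members and 0% of all tested, with 611 of 18058 at an unadjusted p under 0.05. Among the members, the second Gadd45b probe set had the only unadjusted p under 0.05, at -1.13 (SE 0.42, adjusted p 0.999). It was also the 1 probe set of 22 whose Vdr-/- and wild-type arrays did not overlap, as 2.36% of all tested did not. Exchanging the labels of the 2 untreated arrays made 7 calls over all probe sets, and the Gapdh ratio as a covariate made 86 (60 higher and 26 lower).

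Genes whose pattern over the 8 arrays was most like the called members were sought among 6559 other genes by Pearson r of log2 signal. They were Usp12 (0.99), Uhrf1bp1 (0.98) and Coa5 (0.97) for Cdkn1a, Anxa1, Tfrc and Blnk (all 0.98) for Cdkn1c, and Pam (0.97), Cdk4 (0.95) and Mcoln3 (0.95) for Gadd45a. Arrays share their scaling, and these are descriptions only.

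The pathway around these genes was read from 5 lists. Over all tested probe sets, IFN-gamma gave calls for 3.43%, 2.15% higher and 1.27% lower. IFN-gamma calls of single list genes were not followed through the other settings. Under those the count over all probe sets fell from 619 to as low as 53. Of 22 tested G1 partners, 2 rose with IFN-gamma and 0 fell. Rbl1, a retinoblastoma relative that represses E2F genes, had 271.2 and 246.3 in Vdr-/- cells with IFN-gamma, with and without calcitriol, and 237.3 and 206.7 in wild-type cells with IFN-gamma. Without IFN-gamma it had 69.9 and 92.3 in Vdr-/- cells and 88.5 and 85.4 in wild-type cells, a difference of 1.52 (adjusted p 0.0132) with no overlap. Cks1b, a kinase subunit that helps degrade Cdkn1b, also rose, by 1.28 (adjusted p 0.0179). The INK4 genes of this list, Cdkn2a and Cdkn2b, gave -1.66 and -0.65 without being called (adjusted p 0.239 and 0.756). The list median was -0.14, against -0.08 for all tested probe sets.

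Of 18 tested p53 targets, 0 rose with IFN-gamma and 1 fell, beside the Cdkn1a rise and Gadd45a fall above. It was Sesn1, a stress-induced regulator of growth signalling, at -1.53 (adjusted p 0.000146). Its signals were 748.9 and 589.0 in Vdr-/- cells with IFN-gamma, with and without calcitriol, and 181.6 and 416.3 in wild-type cells with IFN-gamma, against 1451.3 and 1362.4 in Vdr-/- cells and 790.2 and 1500.3 in wild-type cells without it. The list median was -0.23. In wild-type cells calcitriol raised 1 of the 18, Plk2, a stress-responsive polo kinase, at 1.91 (adjusted p 0.021). Of all calcitriol calls in wild type, Plk2 included, 0 were left with no filter, a stricter filter or no trend, when either wild-type pair was left out, or in the additive fit without the 2 arrays of highest Gapdh ratio.

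Of 16 growth arrest and stress kinase partners, 1 rose, Btg1, an antiproliferative gene (0.78, adjusted p 0.0398), and 1 fell, Foxo3, a transcription factor of growth arrest (-1.09, adjusted p 0.03). The list median was -0.11. Of 27 genes of S, G2 and M phase, 2 rose, Ube2c, which acts in protein degradation at mitosis (2.60, adjusted p 0.00112), and Ccnb2, a mitotic cyclin (2.34, adjusted p 0.0362), and 0 fell, with a median of 0.25. Ccnb2 was under the floor on 2 of the arrays without IFN-gamma and passed the filter only through its IFN-gamma arrays. Of 12 M-CSF signalling genes, 0 rose and 1 fell, Fos, a growth-factor-induced transcription factor. Its difference was -1.94 (adjusted p 2.29e-06), and the list median was -0.22. Fos also fell with calcitriol in wild-type cells (-2.13, adjusted p 0.00376), with a wild type minus Vdr-/- difference of -2.01 (adjusted p 0.0264). Both Fos calls for calcitriol were likewise lost under each setting given for Plk2, and the difference also with exchanged untreated labels or any pair left out. None of the 5 lists had a call for calcitriol in Vdr-/- cells.

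**Figure D5:**
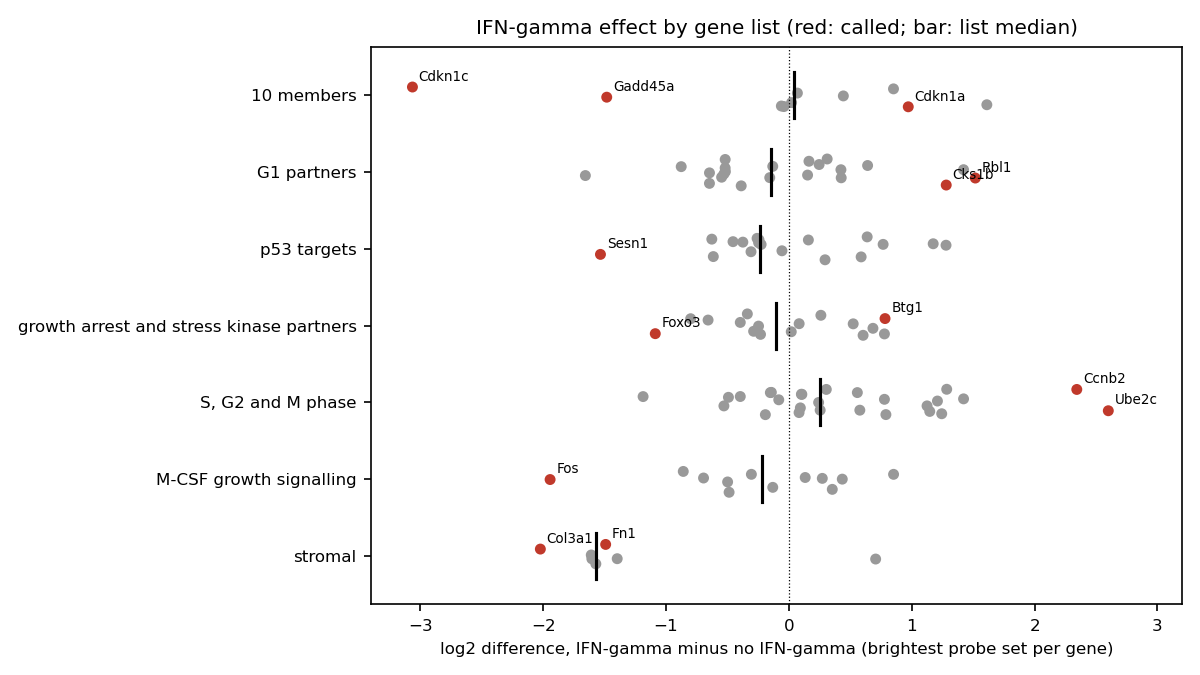
IFN-gamma effect (log2 difference, brightest probe set of each gene) on the 10 members, 5 pathway lists and the stromal markers. Each point is a gene, red where called, and bars are list medians. Cdkn1c lies lowest of all genes shown, and the 7 tested of 10 stromal markers have a median of -1.57. Cdkn1c, and Col1a1 and Sparc among the 7, passed the filter only through arrays without IFN-gamma.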

How the data were processed

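Total RNA was measured on 8 one-colour arrays. The deposited values are linear intensity signals that the authors had scaled so that each array has the same 2% trimmed mean (150.07 to 150.08), as the values show; the software and scaling method: not given in the sources used here. Control probe sets (64) were set aside, signals under the pooled 25th percentile (15.5) were raised to it, and values were put on the log2 scale. Tested were probe sets with at least 1 signal at or above the pooled median (59.1). Probe sets were named from GEO's platform annotation, and the brightest probe set of a gene represents it. Over the 18058 tested probe sets 15.5% of values lay at the floor, and the number of arrays limits precision.

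Tests used limma 3.58.1 in R 4.3.3 (empirical Bayes with an intensity trend, two-sided, Benjamini-Hochberg). IFN-gamma and genotype were fitted over 4 pairs as blocks, with 3 residual degrees of freedom. Calcitriol effects and differences of effects came from a fit nested in genotype, with 2. The code was tested on simulated data. Named were all members, every called gene of the pathway lists (up to 6 per list) and the 3 genes of most like pattern. The members and lists were chosen with earlier results of these data known.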

Additional observations from a re-analysis of the deposited data

How the results depend on the processing

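Counts over all tested probe sets depended strongly on the settings; the cause was not tested. For IFN-gamma (619) the count was 80 with no filter, 70 with no intensity trend, 53 in an additive fit without the 2 arrays of highest Gapdh ratio (2 choices changed together, as wherever those arrays are left out here), 402 with no blocks, 394 with additive covariates on all arrays and 99 to 420 leaving out a pair. For calcitriol in Vdr-/- cells (35) it was 18 with quantile normalization, 1 with a floor at the 10th percentile and 58 at the 40th, 88 with the Gapdh ratio as a covariate, and 0 with no filter, a stricter filter, no trend, exchanged untreated labels, without the 2 arrays or leaving out a pair. For calcitriol in wild-type cells (104) it was 58 with quantile normalization, 5 with the lower floor, 20 with exchanged labels, and 0 with no filter, a stricter filter, no trend, without the 2 arrays or leaving out a pair. For the difference of calcitriol effects (271) it was 100 with the lower floor, 73 with the Gapdh covariate, and 0 with no filter, a stricter filter, no trend, exchanged labels, without the 2 arrays or leaving out a pair. Beside these counts of 0, limma gave an unadjusted p under 0.05 to 132 to 1045 probe sets in Vdr-/- cells, 1083 to 1963 in wild-type cells and 442 to 2107 for the difference. For genotype (0) it was 7 with exchanged labels and 86 with the Gapdh covariate, and for the difference of IFN-gamma effects (0) 109 and 7 under those 2 settings.

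Of 874 recomputed member values, 22 lost a call (all from Cdkn1a, Cdkn1c and Gadd45a), none gained one or reversed a called direction, and 111 uncalled values changed sign. Over 16 alternatives the call held in 7 for Cdkn1a (0.86 to 1.22), 11 for Cdkn1c (-3.34 to -2.25) and 8 for Gadd45a (-2.02 to -1.06). No intensity trend also ended the calls of Cdkn1a (adjusted p 0.376) and Gadd45a (0.371), additive covariates that of Cdkn1a (0.0766), and the mean over probe sets that of Gadd45a (0.0822). No paired analysis by replicate number was possible because each group has 1 array.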
